A study of Mus musculus with 8 samples.

Results

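Heterotrimeric G proteins relay signals from seven-transmembrane receptors, among them the chemokine, prostaglandin and sphingosine phosphate receptors of lymphocytes. A receptor loads GTP onto the alpha subunit, which then separates from the beta-gamma dimer, and each part acts on its own effectors. RGS proteins (regulators of G protein signalling) speed up GTP hydrolysis by alpha subunits and so end the signal.

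The 43 genes described here, of 12393 measured genes, are those whose platform symbol names a G alpha, G beta or G gamma subunit or a numbered RGS protein. They hold 14 G alpha, 5 G beta, 7 G gamma and 17 RGS genes. Members were chosen by symbol and not by a measured value. Each gene's probe set was selected on its mean signal over all 8 arrays, and the family was taken up with results of the CD44hi and CD44lo comparison already known. Differences between these groups are therefore given as a description from the fit over all genes and support nothing about the family as a whole. A further 3 probe sets that carry a symbol of this kind together with other symbols were left out, and Gngt1 and Gnb1l, whose symbols fall outside the wording, are described with the pathway genes.

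The RNA came from stable lines of mouse T cell lymphoma that are deficient in Snf5, which is part of the SWI/SNF chromatin remodeller. Both groups share that deficiency, and no Snf5-competent sample was analysed here. Cells with high surface CD44 (CD44hi, 4 arrays) were separated from cells with low surface CD44 (CD44lo, 4 arrays); CD44 is a hyaluronan receptor that is high on memory and activated T cells. The labels state neither how many lines were used nor whether the replicates were separate cultures, so p-values reflect only how these arrays vary, and that variation may be technical. Values are log2 intensities on Affymetrix Mouse 430A 2.0 arrays, whose number limits the precision. Signals of different probe sets do not rank transcripts against each other.

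Of 8 measured T cell markers, Cd3d, Cd3e, Cd3g, Cd8a and Cd8b1 had log2 intensities from 13.06 to 14.18 in group means. Cd4 and Thy1 were dim in both groups, which here means under the 25th percentile of the whole data (5.26), and Cd2 was at 5.92 in CD44hi against 5.68 in CD44lo. None of the 8 passed in limma (0 at an unadjusted p under 0.05). In each group, arrays 1 and 3 resembled each other, as did arrays 2 and 4, and the labels give no reason for it. As a sign of RNA quality, the 3' Gapdh control probe set exceeded the 5' one by 0.760 to 0.877 (log2) in CD44hi and by 0.650 to 0.730 in CD44lo. For Actb this excess was 0.558 to 0.795 in arrays 2 and 4 and 0.380 to 0.532 in arrays 1 and 3 of both groups, so it moved with the replicate number. At each number it was also larger in CD44hi (0.468, 0.795, 0.532 and 0.710) than in CD44lo (0.380, 0.610, 0.442 and 0.558). The part of these signs in the results below was not tested. In RNA from bulk samples, fewer cells that express a gene and less RNA per cell cannot be told apart.

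Promoter sequence is shown for Rgs9 and Gng12, which differed most between the groups among members with an entry in the RefSeq table, and for Rgs2, whose difference depended on the replicate number. The runs are the 250 bases before the annotated start, 5′ to 3′, on GRCm38: chr11:109298182-109298431 (minus strand) for Rgs9, chr6:66896147-66896396 (plus strand, the first of 2 entries) for Gng12 and chr1:144004150-144004399 (minus strand) for Rgs2. Capitals mark matches, on either strand, to TATAAA (the TATA box), CCAAT (the site of nuclear factor Y), GGGCGG (the GC box) or TGACGTCA (the cAMP response element); no 2 matches overlap in these runs.
Rgs9: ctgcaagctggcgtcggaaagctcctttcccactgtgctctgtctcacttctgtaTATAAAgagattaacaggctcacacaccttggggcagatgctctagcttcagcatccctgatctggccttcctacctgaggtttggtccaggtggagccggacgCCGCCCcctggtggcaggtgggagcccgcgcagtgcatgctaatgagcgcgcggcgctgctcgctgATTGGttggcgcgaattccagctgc
Gng12: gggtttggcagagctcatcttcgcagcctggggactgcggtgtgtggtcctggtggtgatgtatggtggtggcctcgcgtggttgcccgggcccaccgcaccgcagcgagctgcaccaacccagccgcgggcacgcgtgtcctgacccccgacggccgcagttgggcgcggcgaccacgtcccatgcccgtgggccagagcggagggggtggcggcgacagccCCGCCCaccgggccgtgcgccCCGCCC
Rgs2: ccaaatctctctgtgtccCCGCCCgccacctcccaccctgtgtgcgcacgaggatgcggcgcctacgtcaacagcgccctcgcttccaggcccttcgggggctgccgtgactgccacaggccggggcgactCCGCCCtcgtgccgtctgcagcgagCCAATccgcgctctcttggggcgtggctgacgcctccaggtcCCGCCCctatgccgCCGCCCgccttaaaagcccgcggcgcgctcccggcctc
The Rgs9 run held 1 TATAAA, with its first base at -195 from the annotated start, 1 CCAAT match at -25 and 1 GC box at -91. The Gng12 run held 2 GC boxes and the Rgs2 run 4 GC boxes and 1 CCAAT match. The second Gng12 entry held no match to any of these motifs. Of 32851 windows of this length in the table, 12.4% held TATAAA, 33.8% CCAAT and 32.7% a GC box. The table had 32 of the 43 members in 43 windows, of which 8, 12 and 20 held these motifs. The cAMP response element was in 1.55% of all windows and in 0 of the 43 member windows. A match is a string of letters and shows no binding.

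Between the groups, 3 of the 43 genes were higher in CD44hi (2.03% of all genes were) and 2 were lower (1.78% of all). The higher genes code for the gamma subunits Gng11 and Gng12 and for the regulator Rgs9, and the lower ones for the regulators Rgs14 and Rgs18 (limma, Benjamini-Hochberg adjusted p under 0.05 over all genes). The groups did not overlap in 9 of the 43 genes (20.9%), 4 higher and 5 lower, against 10.3% of all genes. The median difference was -0.03 over the members and -5.86e-05 over all genes, with 19 members positive and 24 negative. Several members that did not pass, such as Rgs2 and Gnb4, differed by as much as the lower ones that did. Rgs18 was near background in both groups. At an unadjusted p under 0.05 the counts were 5 higher and 4 lower. No share over all genes was taken at that threshold, here or below. Unadjusted counts therefore cannot be set against the other genes. Arrays that share a number shifted alike, as did arrays of unlike number within 1 and 3, or within 2 and 4. A fit with a replicate block called 4 members higher (3.08% of all genes) and 2 lower (3.11% of all genes). The block added Gnaz and Gnb4 and lost Rgs14. In fits added after the data were seen, arrays 1 and 3, and 2 and 4, of a group were averaged, which leaves 2 values per group. Without a block 0 members were higher and 0 lower (limma; 3 and 3 at an unadjusted p under 0.05), but only 0.153% and 0.0323% of all genes were called, so this count says little about the members. Once the averaged fit took each pair of numbers as a block, it called Gng11, Gng12 and Rgs9 higher and 0 members lower (limma; 4 lower at an unadjusted p under 0.05), against 1.35% and 0.936% of all genes. Gnb4 and Gnaz, the additions of the replicate block, were not called there.

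**Figure D1:**
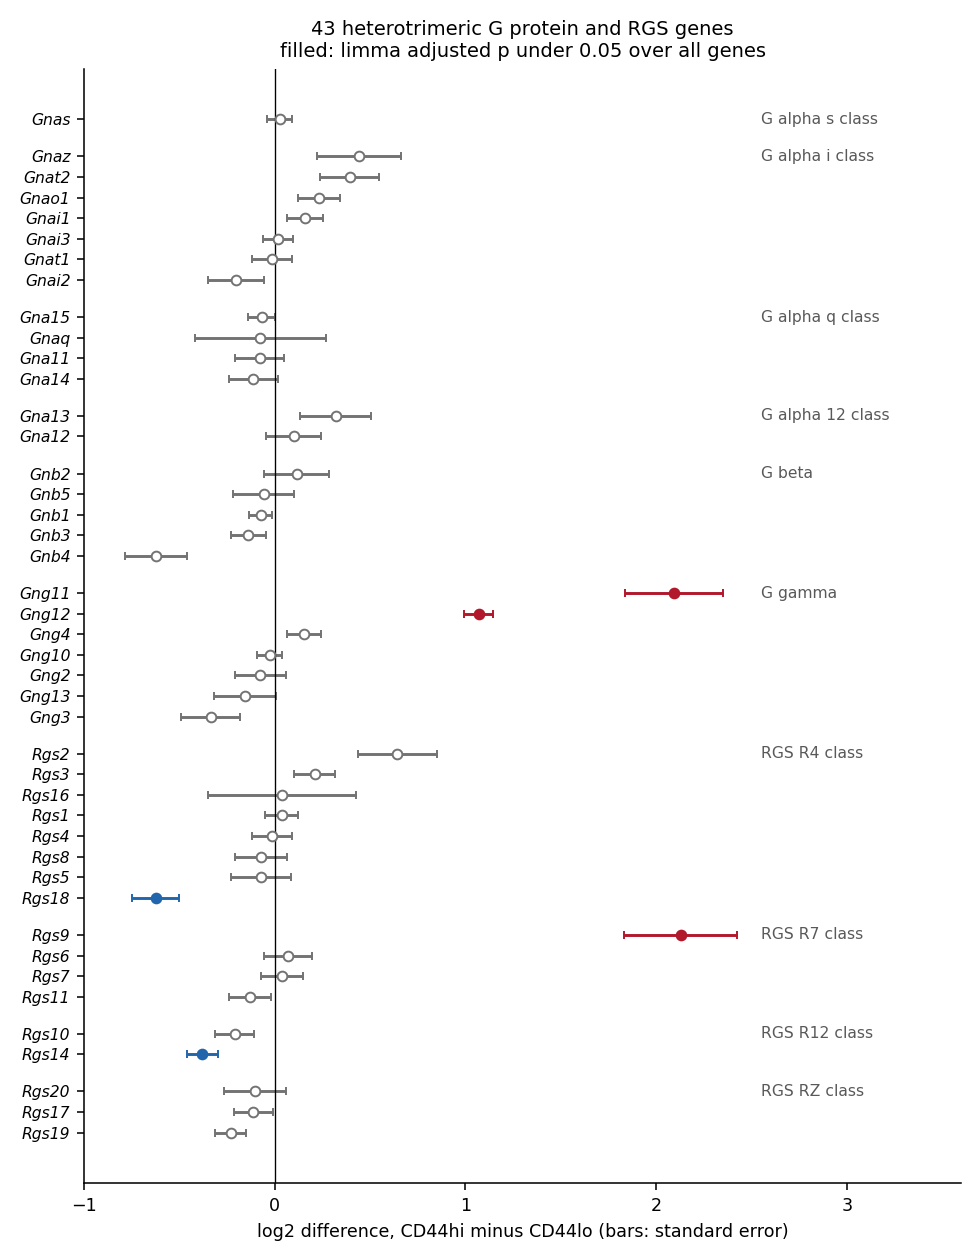
Log2 difference between CD44hi and CD44lo for each of the 43 genes by class, with bars for the standard error (4 arrays per group); filled points passed the limma threshold over all genes, red higher and blue lower in CD44hi. Gng11 and Rgs9 lie near 2, Gng12 near 1, and most other genes close to 0.

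G gamma subunits carry the lipid anchor that holds the beta-gamma dimer at the membrane. Gng11, a farnesylated gamma subunit, had log2 intensities of 7.64, 8.25, 7.41 and 8.65 in CD44hi arrays 1 to 4, and of 5.65, 5.87, 5.87 and 6.19 in CD44lo arrays 1 to 4. The lowest CD44hi value was above the highest CD44lo value by more than the spread within CD44lo, but not by more than the wider spread within CD44hi. The means were 7.99 ± 0.57 and 5.89 ± 0.23 (SD, n = 4 each). Gng11 was thus 4.27-fold higher in CD44hi (difference 2.10 on the log2 scale, SE 0.26, limma adjusted p = 0.00196), and the difference at replicate numbers 1 to 4 was 1.99, 2.39, 1.54 and 2.46.

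Gng12, a gamma subunit found in many tissues, was at 8.36, 8.37, 8.50 and 8.38 in CD44hi arrays 1 to 4. In CD44lo it was at 7.30, 7.35, 7.23 and 7.44, so both groups were tight and lay apart (8.40 ± 0.07 and 7.33 ± 0.09, SD, n = 4 each). It was 2.10-fold higher in CD44hi (difference 1.07 on the log2 scale, SE 0.08, limma adjusted p = 6.50e-05), by 0.93 to 1.27 at the 4 replicate numbers. Its second probe set showed a larger difference, 2.01, at 8.84 in CD44hi and 6.83 in CD44lo.

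The other 5 gamma genes had differences from -0.34 to 0.15 and did not pass. Gng3, a gamma subunit known from neurons, was at 12.99, 12.40, 12.93 and 12.51 in CD44hi and at 13.20, 12.82, 13.16 and 13.004 in CD44lo. Its difference of -0.34 (SE 0.15, limma adjusted p = 0.417) was negative at every replicate number, but the groups overlapped. Gng10 was steady, at 13.69, 13.73, 13.65 and 13.63 in CD44hi and at 13.74, 13.64, 13.72 and 13.70 in CD44lo (difference -0.03, SE 0.07). Gng2, a gamma subunit of leukocytes, differed by -0.08, Gng13 by -0.16 and Gng4 by 0.15. The second Gng2 probe set differed by -0.51 with separate groups and did not pass (SE 0.13, limma adjusted p = 0.101).

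G beta subunits form the propeller that binds gamma and effectors. Gnb4 was at 10.95, 10.57, 10.88 and 10.35 in CD44hi arrays 1 to 4 and at 11.54, 11.10, 11.47 and 11.12 in CD44lo. All CD44hi values were below all CD44lo values, with arrays 2 and 4 the lower in both groups. Its log2 difference was -0.62 (SE 0.16), which did not pass (limma adjusted p = 0.0824). With the replicate block it passed (SE 0.07, limma adjusted p = 0.00459), but not with averaged arrays and the pair as a block (limma adjusted p = 0.0511). It also passed with array weights (limma adjusted p = 0.0433). In arrays 1 and 3 alone and 2 and 4 alone, sets chosen from these data, it passed too (limma adjusted p = 0.0151 and 0.0472). It did not pass when any single array was left out. The differences at numbers 1 to 4 were -0.60, -0.53, -0.60 and -0.77. The second Gnb4 probe set differed by -1.14 with groups that also did not overlap. In the fit of all probe sets it did not pass (SE 0.26, limma adjusted p = 0.0554).

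Gnb1 showed that separated groups can differ little. It was at 13.76, 13.76, 13.79 and 13.75 in CD44hi and at 13.82, 13.83, 13.84 and 13.87 in CD44lo, a difference of -0.07 (SE 0.06, limma adjusted p = 0.772). Gnb2 differed by 0.11, Gnb3 by -0.14 and Gnb5, the beta subunit that pairs with RGS proteins of the R7 class, by -0.06.

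None of the 14 G alpha genes passed (limma; 1 was higher and 0 lower at an unadjusted p under 0.05), and none had separated groups. Their differences ran from -0.20 to 0.44. Alpha subunits set which effector a receptor reaches: the s class stimulates adenylyl cyclase, the i class inhibits it, and the q class activates phospholipase C beta. Gnas, the s class gene, was at 14.50, 14.50, 14.53 and 14.54 in CD44hi and at 14.52, 14.51, 14.51 and 14.43 in CD44lo (difference 0.02, SE 0.06).

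In the i class, through which chemokine receptors mainly act, Gnai3 was at 12.47, 12.43, 12.43 and 12.22 in CD44hi and at 12.38, 12.36, 12.42 and 12.32 in CD44lo (difference 0.02, SE 0.08). Gnai2, the i class alpha subunit known for T cell migration, differed by -0.20 (SE 0.15), its second probe set by -0.34 (SE 0.22), and Gnai1 by 0.16 (SE 0.09). The groups overlapped in the probe sets used for these 3 genes, and none passed. Another Gnai1 probe set had separate groups, at 11.92 in CD44hi and 11.66 in CD44lo, and did not pass either (difference 0.26, SE 0.09, limma adjusted p = 0.249). Gnaz, an i class subunit that resists pertussis toxin, was at 6.45, 7.10, 6.69 and 7.18 in CD44hi and at 6.11, 6.73, 6.05 and 6.77 in CD44lo. The groups overlapped because arrays 2 and 4 were higher in both, but at each replicate number CD44hi was above CD44lo, by 0.34, 0.38, 0.64 and 0.41. The difference of 0.44 did not pass (SE 0.22, limma adjusted p = 0.493) and did with the replicate block (SE 0.08, limma adjusted p = 0.0225). It did not with averaged arrays and the pair as a block (limma adjusted p = 0.129).

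Gnat2, the transducin alpha subunit of cones, was at 9.31, 8.64, 9.37 and 9.02 in CD44hi and at 8.61, 8.67, 8.81 and 8.68 in CD44lo. CD44hi array 2 lay among the CD44lo values and the other 3 CD44hi arrays above them. In CD44hi, arrays 2 and 4 were both below arrays 1 and 3. The difference was 0.63 at numbers 1 and 3 and 0.15 at numbers 2 and 4. Over all arrays it was 0.39 and did not pass (SE 0.16, limma adjusted p = 0.309), nor with the replicate block (limma adjusted p = 0.147). It passed without CD44hi array 2 (0.54, limma adjusted p = 0.0377), but not when any other single array was left out. It also passed with array weights and in arrays 1 and 3 alone (limma adjusted p = 0.0209 and 0.0259), but not in arrays 2 and 4 alone. Gnat1, its rod counterpart, was dim in both groups. Gnao1 differed by 0.23 (SE 0.11).

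In the q class, Gna11 was at 9.10, 9.08, 9.09 and 9.16 in CD44hi and at 8.99, 9.58, 9.09 and 9.08 in CD44lo, with CD44lo array 2 alone high. The 4 q class differences were all between -0.11 and -0.07. In the 12 class, Gna13 was at 11.55, 12.28, 11.38 and 11.61 in CD44hi and at 11.59, 11.20, 11.33 and 11.42 in CD44lo, again with 1 array, CD44hi array 2, apart from the rest. Its difference was 0.32 (SE 0.19, limma adjusted p = 0.585), and that of Gna12 was 0.10.

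**Figure D2:**
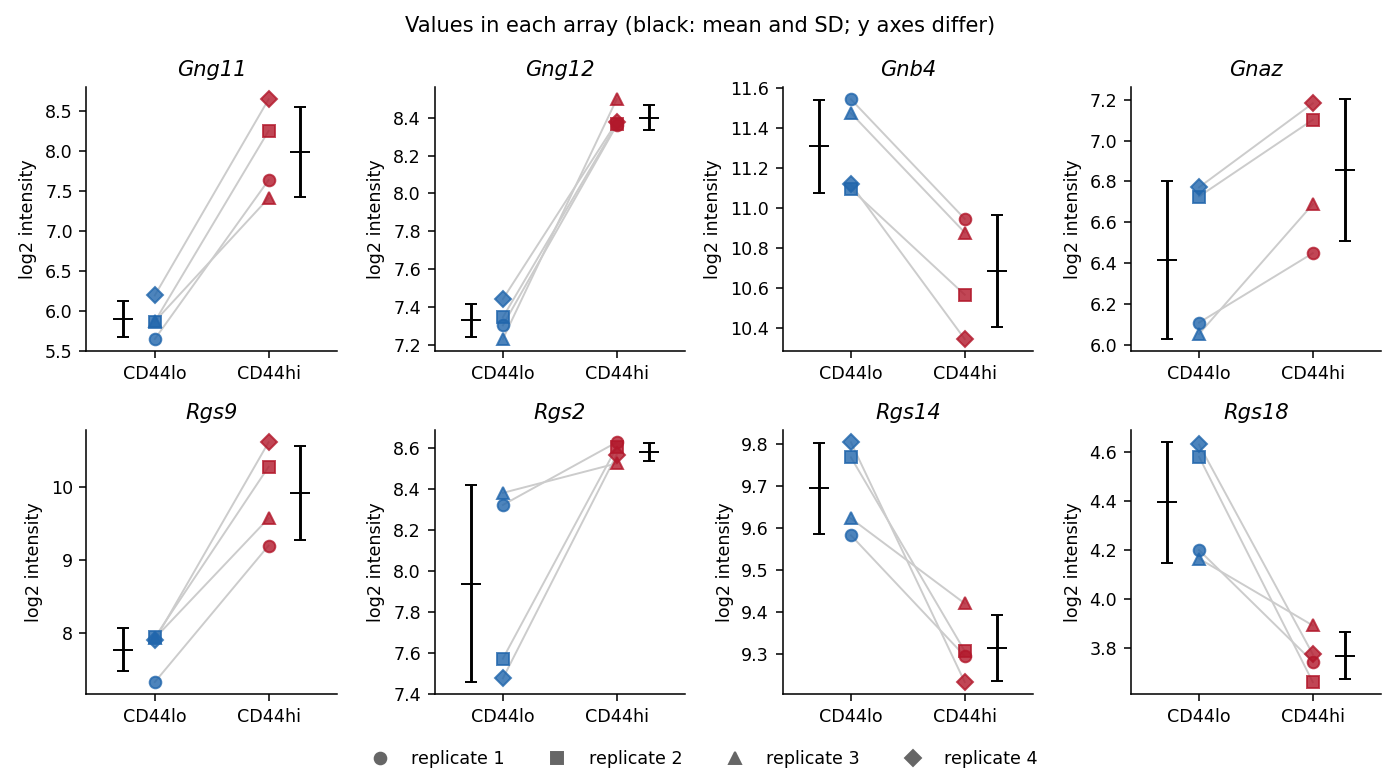
Log2 intensity in each array for 8 members (symbols: replicate numbers, joined by grey lines; black marks: mean and SD of 4 arrays; y axes differ). Gng11, Gng12 and Rgs9 lie higher in CD44hi with no overlap, Rgs14, Rgs18 and Gnb4 lower, and for Rgs2 the CD44lo arrays fall into a high pair, 1 and 3, and a low pair, 2 and 4.

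RGS genes are grouped by sequence into the R4, R7, R12 and RZ classes. Rgs9, of the R7 class, ends the light response in photoreceptors and tunes dopamine signalling in the striatum. It was at 9.20, 10.27, 9.57 and 10.60 in CD44hi arrays 1 to 4 and at 7.34, 7.94, 7.93 and 7.91 in CD44lo. Every CD44hi array was more than 1 log2 unit above every CD44lo array. The means were 9.91 ± 0.64 and 7.78 ± 0.30 (SD, n = 4 each). The level was 4.38-fold higher in CD44hi (difference 2.13 on the log2 scale, SE 0.30, limma adjusted p = 0.00383), or 1.86, 2.33, 1.64 and 2.70 at numbers 1 to 4. A second Rgs9 probe set, dim in both groups, differed by 0.57, at 5.09 in CD44hi and 4.52 in CD44lo. The other 3 R7 genes, Rgs6, Rgs7 and Rgs11, differed by 0.07, 0.04 and -0.13 and did not pass, and the first 2 of them were dim in both groups.

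Rgs14, an R12 protein that also binds inactive alpha i subunits, was at 9.29, 9.31, 9.42 and 9.23 in CD44hi and at 9.58, 9.77, 9.62 and 9.80 in CD44lo. The groups did not overlap (9.31 ± 0.08 and 9.69 ± 0.11, SD, n = 4 each). Rgs14 was 1.30-fold lower in CD44hi (difference -0.38 on the log2 scale, SE 0.08, limma adjusted p = 0.0372). The call was narrow. It was lost with the replicate block (limma adjusted p = 0.0528) and without any one of the 8 arrays (limma adjusted p from 0.0523 to 0.123). Rgs10, the other R12 gene, was dim in both groups and differed by -0.21.

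Rgs18, an R4 protein of platelets and megakaryocytes, was at 3.75, 3.66, 3.89 and 3.78 in CD44hi and at 4.20, 4.58, 4.16 and 4.63 in CD44lo. On each array the 27 probe sets for bacterial spike-in transcripts had a median of 3.95 to 4.12. Rgs18 is thus near background in both groups, its presence is not shown, and no fold is given. The groups did not overlap (3.77 ± 0.10 and 4.39 ± 0.25, SD, n = 4 each). The fit gave a log2 difference of -0.62 (SE 0.12, limma adjusted p = 0.0250), which so near background is no measure of the size of a change. The second probe set differed by -0.38 with overlapping groups. The call was lost without CD44hi replicate 1, 2 or 4 or CD44lo replicate 2 or 4 (limma adjusted p from 0.0542 to 0.0817).

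Rgs2, an R4 protein that favours alpha q, was at 8.63, 8.60, 8.52 and 8.57 in CD44hi and at 8.32, 7.57, 8.38 and 7.47 in CD44lo. CD44hi was uniform, whereas CD44lo split by replicate number, and the groups did not overlap. Over all arrays the difference of 0.64 did not pass (SE 0.21, limma adjusted p = 0.174). It was 0.22 between arrays numbered 1 and 3 and 1.06 between arrays numbered 2 and 4, where it passed (limma adjusted p = 0.00658). The change of the difference between these sets, 0.84, passed in a separate fit (limma interaction, adjusted p = 0.0263), as did 1.52% of all genes and no other member. The sets were chosen because these same arrays resembled each other. The p-values by set therefore describe these arrays and are no independent support. The second Rgs2 probe set showed the same split in CD44lo, at 8.09, 7.23, 7.92 and 7.35.

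Rgs16, an R4 protein induced in activated T cells, was at 11.03, 12.04, 11.25 and 12.12 in CD44hi and at 10.92, 12.19, 10.92 and 12.26 in CD44lo. The groups overlapped (difference 0.04, SE 0.39), and the values moved with the replicate number. Rgs1, known for restraining lymphocyte chemotaxis, and Rgs5 and Rgs8 were dim in both groups, with differences of 0.04, -0.07 and -0.07. Rgs3 differed by 0.21 and Rgs4 by -0.01. In the RZ class, Rgs19 was at 11.86, 11.67, 11.91 and 11.86 in CD44hi and at 12.05, 12.05, 11.98 and 12.16 in CD44lo. Its groups were separate by a small step, and the difference of -0.23 (SE 0.08) did not pass (limma adjusted p = 0.226). Rgs17, dim in both groups, and Rgs20 differed by -0.11 and -0.10. Of the 43 genes 9 were dim in both groups and 34 were not.

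Arrays of the same number shared other movements too. Arrays 2 and 4 lay apart from arrays 1 and 3 in the same direction in both groups for 11 of the 43 genes, or 25.6%, against 34.8% of all genes. In 4 of them, Rgs16, Gnaq, Gnaz and Gnb5, arrays 2 and 4 were the higher, and in 7, Gnai2, Gnai3, Gnb2, Gnb4, Gng2, Gng3 and Gng13, the lower. The largest steps were those of Rgs16, 0.94 in CD44hi and 1.30 in CD44lo, and of Gnaq, the q class alpha subunit, 0.91 and 0.95. For Rgs9 and Gng11 the step was 1.05 and 0.93 in CD44hi but 0.29 and 0.27 in CD44lo. For these 2 genes the test of the difference between sets did not pass (limma adjusted p = 0.322 and 0.291).

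**Figure D3:**
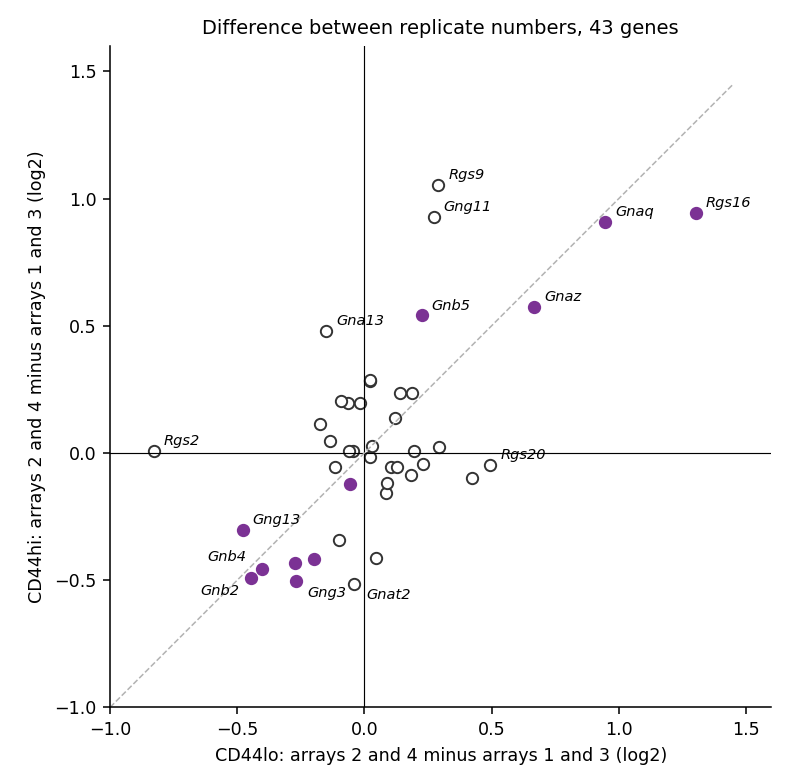
Mean of arrays 2 and 4 minus mean of arrays 1 and 3 for the 43 genes (log2), in CD44lo on the x axis and CD44hi on the y axis; filled points are the 11 genes whose sets lay apart the same way in both groups and the dashed line marks equal steps. Rgs16 and Gnaq are high on both axes, and Rgs2 has a step of -0.83 in CD44lo against 0.01 in CD44hi.

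The 43 genes are covered by 84 probe sets, and 23 genes have several. In a fit of all probe sets, 7 of the 84 were higher in CD44hi (1.57% of all probe sets) and 2 lower (1.51%). In 13 of the 23 genes all probe sets had the same sign. The share over all genes was not taken, so this count is a description only. Among probe sets not used above, 1 of Gng4 was at 5.02 in CD44hi and 4.23 in CD44lo, both dim (difference 0.79, limma adjusted p = 0.00589), whereas the probe set used differed by 0.15. Gng4 codes for a gamma subunit known from brain. For Gnao1, the main alpha subunit of neurons, 1 of 3 probe sets differed by 0.75 (limma adjusted p = 0.00554) and the others by 0.23 and -0.04. These single results for Gng4 and Gnao1 therefore depend on the probe set. The 6 probe sets of Gna13 all differed in the positive direction, by 0.16 to 0.63, with none passing.

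**Figure D4:**
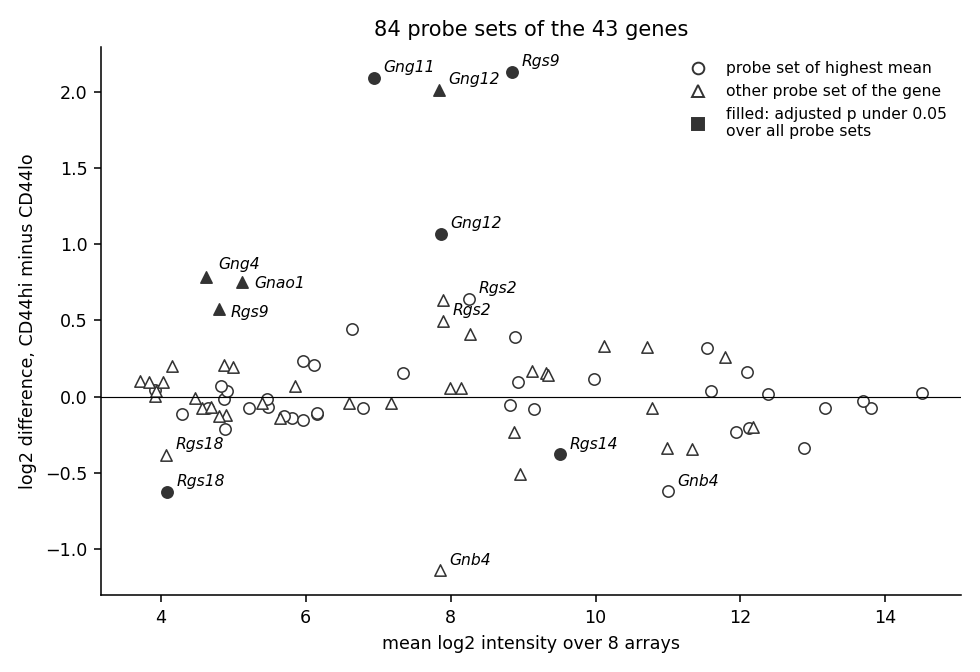
Log2 difference between CD44hi and CD44lo against mean log2 intensity for the 84 probe sets of the 43 genes; circles are the probe sets of highest mean, triangles the others, and filled symbols passed the limma threshold over all probe sets. Both Gng12 and both Rgs9 probe sets lie above 0, and the extra calls for Gng4 and Gnao1 lie at low intensity.

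Genes that act before and after the G protein were read from 3 pathway lists. Of 44 measured G protein-coupled receptors, 3 were higher and 2 lower in CD44hi, where 2.03% and 1.78% of all genes were. With the replicate block, 4 and 3 were called, against 3.08% and 3.11%. The chemokine receptors Ccr9, Ccr7 and Cxcr3 differed by 2.35, 1.88 and 0.76. The prostaglandin E receptor gene Ptger3 was lower by 0.50 on the log2 scale, at 12.01 in CD44hi and 12.51 in CD44lo (SE 0.07, limma adjusted p = 0.00554), and Ccr2 differed by -2.34. The block added Cxcr4 (1.05, limma adjusted p = 0.0258) and the nucleotide receptor P2ry1 (-0.35, limma adjusted p = 0.0329). With averaged arrays and the pair as a block, Ccr9, Ccr7 and Ccr2 were called and the other 4 were not (limma adjusted p from 0.0711 to 0.226). The list's median difference was -0.01.

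Of 24 genes of the cAMP branch, 1 was higher and 0 lower (limma; 3 and 1 at an unadjusted p under 0.05), with a list median of 0.06. A single call among 24 genes is close to the share over all genes. Adcy8, an adenylyl cyclase, was at 5.31, 5.78, 5.76 and 5.34 in CD44hi and at 4.78, 4.05, 4.76 and 4.68 in CD44lo (difference 0.98, SE 0.19, limma adjusted p = 0.0210). The CD44lo values are dim, so the size of this difference is uncertain, and the call was lost without CD44hi replicate 2 or 3 or CD44lo replicate 4. With the replicate block Adcy9 passed as lower (-0.49, limma adjusted p = 0.0386), but not with averaged arrays and the pair as a block (limma adjusted p = 0.118).

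Of 26 other regulators and partners, Grk5 alone was higher and 0 lower (limma; 1 and 2 at an unadjusted p under 0.05), with a median of -0.05; this single call too is close to the share over all genes. Grk5, a kinase that desensitises active receptors, was at 8.91, 9.33, 9.05 and 9.44 in CD44hi and at 8.05, 8.44, 8.01 and 8.40 in CD44lo (difference 0.96, SE 0.15, limma adjusted p = 0.00763). With the replicate block its relative Grk4 passed as lower (-0.66, limma adjusted p = 0.00752), but not with averaged arrays and the pair as a block (limma adjusted p = 0.0658). Gngt1 and Gnb1l differed by 0.16 and 0.05.

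Some members are best known from other cell types, so markers of those types were read beside them. Of 9 measured platelet and megakaryocyte markers (Gng11, Gnaz and Rgs18 are known from platelets), none passed (limma; 0 at an unadjusted p under 0.05 in either direction), and 6 were dim in both groups. Their summed intensity was 446 to 510 in CD44hi and 447 to 508 in CD44lo. Their median log2 intensity per array was 4.72 to 4.90 in CD44hi and 4.69 to 4.91 in CD44lo. Among the dim ones, Pf4 (4.00 in CD44hi, 3.94 in CD44lo) and Ppbp (4.12 and 4.11) were near background. Markers that were not dim in both groups are not given singly. Of 9 neuronal and photoreceptor markers (Rgs9, Gng3 and Gnat2 are known from neurons or photoreceptors), Tubb3 alone passed (9.27 in CD44hi, 7.91 in CD44lo, limma adjusted p = 0.00557). The 9 summed to 6186 to 7962 in CD44hi and 6380 to 7802 in CD44lo. As 6 were dim in both groups, these sums rest on the few that were not and do not describe the list. The list's median log2 intensity per array was 4.21 to 4.46 in CD44hi and 4.25 to 4.62 in CD44lo. Of 9 B cell markers Ebf1 alone passed (limma; 3 higher and 0 lower at an unadjusted p under 0.05). Their summed intensity was 3122 to 5820 in CD44hi and 286 to 343 in CD44lo. Their median log2 intensity per array was 5.05 to 5.42 and 4.90 to 5.04, ranges that nearly touch. The median difference over the 9 genes was only 0.07, and 4 were dim in both groups. The sums therefore do not describe a shift of the whole list. The part of these markers in the results was not tested. None of 12 myeloid markers (643 to 1669 against 685 to 1271; at an unadjusted p under 0.05, 0 higher and 1 lower) or of 12 stromal and endothelial markers (496 to 588 against 498 to 523; 0 and 0) passed in limma.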

How the data were processed

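RMA (Robust Multichip Average) turned scans of Affymetrix Mouse 430A 2.0 arrays into the intensities per probe set that the authors deposited, per the labels' protocols. Its version is not given in the sources used here. They spanned 7.61 to 36128 and were read as linear. They were log2-transformed with no pseudocount. Of 22690 probe sets 20380 non-control ones carry 1 symbol in the platform annotation, and RefSeq identifiers changed 0 symbols. Each of 12393 genes took its probe set of highest mean.

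The groups were compared by limma 3.58.1 (lmFit, eBayes; R 4.3.3) without covariates, tested on simulated data first. P-values were adjusted by Benjamini-Hochberg over all genes. Deviations of arrays sharing a replicate number from their group means correlated at 0.574, 0.404, 0.533 and 0.531. Between CD44hi and CD44lo arrays of unlike number within 1 and 3, or within 2 and 4, the correlation was 0.372 to 0.521. Each CD44hi array correlated best with the CD44lo array of its own number. CD44lo array 2, however, correlated better with CD44hi array 4 (0.458) than with CD44hi array 2 (0.404). The values thus show a likeness of these sets, with a smaller added likeness by number. Blocked values are given where they change a call. Arrays 1 and 3, and 2 and 4, were treated as sets in an interaction fit because the values, not the labels, set them apart.

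Members, lists and tests were chosen with earlier results of these data known. Values in every array are given for members that pass, then for those of largest difference up to 12, and for the highest-signal member of each class; of each pathway list, those that pass are named. 1 further list is not reported here. Rgs1, Gnai2, Gnaq, Gng4, Gnao1, genes that pass only with the block, and other members with a difference alone are named outside this rule, after their values were seen. Alternatives covered normalization, pseudocount, filters, probe set choice, variance model, array weights, the block, arrays used and thresholds. Sequences are from RefSeq (GRCm38).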

Additional observations from a re-analysis of the deposited data

Results flagged for a closer look

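Of 36 sets of 4 values (18 members in each group), 5 held a single array distant from the rest; chance flags about 1 group in 20 for independent values. CD44hi replicate 3 was high for Gng12, at 8.50 with the others at 8.36 to 8.38, and for Gnb1, at 13.79 with the others at 13.75 to 13.76. CD44lo replicate 1 was low for Rgs9, at 7.34 with the others at 7.91 to 7.94. CD44hi replicate 4 was low for Gnai3, at 12.22 with the others at 12.43 to 12.47, and CD44lo replicate 4 was low for Gnas, at 14.43 with the others at 14.51 to 14.52. The CD44hi and CD44lo difference of Rgs2 was 0.84 larger on the log2 scale in arrays numbered 2 and 4 than in arrays numbered 1 and 3 (limma interaction, adjusted p = 0.0263). As these sets were chosen from the same data, that p-value is a description only.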

How the results depend on the processing

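For 18 named members, 388 values were computed with other settings: 351 stayed on the same side of the threshold, 28 lost a call, 9 gained one and 0 called members reversed; 15 values of uncalled members changed sign. Gng11, Gng12 and Rgs9 lost their calls only when arrays 1 and 3, and 2 and 4, of a group were averaged (limma adjusted p = 0.240, 0.0981 and 0.287); among genes above the median they were not tested. That averaging, chosen after the data were seen, called 0 members higher and 0 lower (limma; 3 and 3 at an unadjusted p under 0.05), where it called 19 and 4 of all 12393 genes, so these losses say little about the members. It called 3 and 0 when that fit also had the pair of numbers as a block (6 and 4 unadjusted; 167 and 116 of all genes); Gnb4 and Gnaz, gained with the replicate block, were lost there (limma adjusted p = 0.0511 and 0.129). Against 3 members higher, 0 were among genes above the median (15 members tested, 0 unadjusted), where 102 of all 6196 genes were. With the probe set of lowest mean 5 members were higher, as were 199 of all 12393 genes. Against 2 lower, there was 1 with a pseudocount of 16, with genes above the 25th percentile and with genes above the median. Of all genes, 241 of 12393, 229 of 9544 and 113 of 6196 were lower there. There was also 1 with a trended and robust variance and with arrays 1 and 3 alone, where 202 and 450 of all 12393 were. There were 0 lower with the probe set of lowest mean (5 unadjusted) and at adjusted p under 0.01 (4 unadjusted). Those settings called 165 and 100 of all 12393 genes lower. Without single arrays, 3 to 4 members were higher and 0 to 1 lower (3 to 6 unadjusted). Of all 12393 genes, 178 to 230 were higher and 127 to 226 lower in those fits. With the replicate block 4 members were higher and 2 lower, against 382 and 385 of all 12393 genes. Values near background, as for Rgs18, limit what these arrays can show.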
